A study of Mus musculus with 6 samples.

Results

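Cytosolic ribosomal proteins are the protein parts of the ribosomes that translate nuclear messenger RNAs. The genes described here are 48 of the 18193 genes measured in this series. They are the genes whose probe sets carry a single gene symbol made of Rpl or Rps and a number, with an optional a, x, l or l1, or the symbol Rpsa, Rplp0, Rplp1 or Rplp2. Symbols of pseudogenes and of the ribosomal S6 kinases were left out. Of the 48 genes, 26 encode proteins of the large subunit (Rpl) and 22 proteins of the small subunit (Rps and Rpsa). Many ribosomal protein genes have near-identical processed pseudogenes, and 28 further symbols of the same form appear in the annotation with probe sets that list several genes, so they could not be named singly and are not members.

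The RNA measured on Affymetrix arrays came from the mouse podocyte line SVI, which is conditionally immortalized. Podocytes are the epithelial cells that cover the glomerular capillaries of the kidney. The 3 stretched samples came from cells stretched for 3 days in a cyclic, biaxial way (frequency 0.5 Hz, linear strain up to 5%), and the 3 unstretched samples had not. Both groups had been differentiated for 1 to 2 weeks at 38 °C in RPMI with 10% FBS. As a model the line is limited to 1 immortalized line in culture, and the series speaks of 3 independent batches without saying whether these are cultures, so p-values measure the spread between the arrays, which may be partly technical.

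A ribosome is built from a small subunit, which reads the messenger RNA, and a large subunit, which joins the amino acids. Each ribosomal protein is needed in about equal amounts, and unassembled protein is degraded, so cells control the set together. Most of these messengers begin with a C followed by a run of pyrimidines, the terminal oligopyrimidine (TOP) motif, through which the kinase complex mTORC1 and the RNA-binding protein Larp1 set their translation. That control acts on translation, which total RNA on arrays does not measure. Some genes are paralogs, second copies that can replace the parent protein in the ribosome or have other uses.

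Starts of transcripts are shown for the 5 members that passed the test described below and for 3 others, because the start carries the element by which this family is known. Rps6, Rps18 and Rpl35 did not pass and were picked as examples of a start with the motif, which most matched members lack at the annotated base. RefSeq promoters of build GRCm38.p6 were found for 42 members. Each window runs from 15 bases before the annotated start through the first 15 transcribed bases, 5′ to 3′, and capitals mark the longest run of C and T among the transcribed bases.
Rpl22l1, chr3:28805493-28805522, plus strand: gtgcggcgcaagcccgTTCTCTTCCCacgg
Rpl14, chr9:120571502-120571531, plus strand: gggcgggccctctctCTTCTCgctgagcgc
Rpl7l1, chr17:46782642-46782671, minus strand: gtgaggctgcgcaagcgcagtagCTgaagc
Rpl27a, chr7:109519180-109519209, plus strand: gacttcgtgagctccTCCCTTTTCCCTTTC
Rps27, chr3:90213634-90213663, minus strand: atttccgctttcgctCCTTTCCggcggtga
Rps6, chr4:86857353-86857382, minus strand: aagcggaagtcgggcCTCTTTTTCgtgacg
Rps18, chr17:33955651-33955680, minus strand: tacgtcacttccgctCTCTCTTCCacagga
Rpl35, chr2:39005117-39005146, minus strand: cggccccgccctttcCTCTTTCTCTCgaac
Of the 42 members, 8 (19.0%) had an annotated start at a C followed by 4 pyrimidines on the transcribed strand, against 3.01% of the 27025 genes in the promoter table. A run of at least 5 pyrimidines within the first 15 bases was present in 57.1% of members and 28.7% of all genes. Of the 8 members with such a start, 2 passed the test, Rpl14 in the upward direction and Rps27 in the downward direction. Over all members 10.4% passed, and over all genes 14.7%. Whether such a start goes with a call or its direction was not tested, and 8 members are few. Rpl7l1 had the shortest run of the 5 members that passed, at 2 bases, and Rpl27a the longest, at 15 bases. Annotated starts can lie some bases away from the start a cell uses, so a window without the motif says nothing about the messenger.

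The arrays behind these values were closely alike in overall signal. Values are RMA log2 signals, 1 per probe set and array, and a change is stretched minus unstretched on this scale. The signal of a probe set depends on its probes, so signals of different genes are not compared as RNA amounts, and RMA sets the arrays equal in overall level, so a change in all RNA, or in the RNA per cell, could not be seen. The spread over probe sets was larger in stretched (SD 2.07 to 2.10) than in unstretched arrays (2.03 to 2.05). The 3′ minus 5′ difference of the beta-actin controls, a sign of RNA quality, was 1.30 ± 0.05 in stretched and 1.57 ± 0.03 in unstretched arrays (SD, n = 3 each; two-sided exact permutation test, p = 0.1, which 3 arrays against 3 cannot go below). The same difference for the Gapdh controls was 0.16 ± 0.10 in stretched and 0.25 ± 0.07 in unstretched arrays (SD, n = 3 each). Those groups overlapped (two-sided exact permutation test, p = 0.4). The part of RNA quality in the results below was not tested. Of 12 podocyte markers measured, 8 gave a signal above that of the median gene, while the slit diaphragm gene Nphs1 did not. Of the 12, the intermediate filament gene Nes was higher in stretched cells (0.57) and the actin-associated Synpo lower (-0.45), on the log2 scale. A signal above that of the median gene was given by 0 of 7 endothelial, 1 of 6 macrophage, 2 of 5 mesangial and 3 of 6 proximal tubule markers. The macrophage markers Cd68 and Csf1r were lower in stretched cells, with log2 changes of -0.89 and -0.50, the mesangial marker Pdgfrb was higher (0.41), and the tubule markers Aqp1 (2.09) and Cubn (0.49) were higher. A change in the number of such cells and a change in RNA per cell cannot be told apart in these bulk samples, and their part in the results below was not tested.

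Most messengers of the cytosolic ribosome did not pass the test after 3 days of stretch. Of the 48 genes, 4 rose and 1 fell at a Benjamini-Hochberg adjusted p under 0.05 over all genes in limma, and 43 did not pass. The genes that rose were Rpl22l1, Rpl14, Rpl7l1 and Rpl27a, all named for the large subunit, and the gene that fell was Rps27 of the small subunit. The 5 calls are 10.4% of the members, against 14.7% of all 18193 genes, where 7.98% were higher and 6.76% lower in stretched cells. The median log2 change was -0.02 for the members and -0.02 for all genes. The quartiles of the members were -0.09 and 0.04, against -0.13 and 0.12 for all genes. The sign of the family median depends on the scaling. It was 0.01 with arrays centred on their medians and -0.08 with cyclic loess or with quantile normalization repeated. Centring shifts the change of every gene alike and is no trait of the family. The array medians over all probe sets averaged 4.94 in stretched and 4.97 in unstretched arrays. Changes of the members ran from -0.39 to 0.53, and 19 were above 0 and 29 below. The mean log2 value over all 48 genes was 10.55 ± 0.03 in stretched and 10.55 ± 0.02 in unstretched arrays (SD, n = 3 each). The median over the 48 genes, taken array by array, was 11.77 ± 0.02 in stretched and 11.88 ± 0.04 in unstretched arrays (SD, n = 3 each), with every stretched array below every unstretched one. Such a median is set by the genes in the middle of the ranking and not by the whole family. These were Rpl10a (11.92) and Rpl38 (11.68) on stretched array 1, and Rps20 (11.98) and Rpl38 (11.82) on unstretched array 1.

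The 43 genes that did not pass had narrow intervals. All 43 had a 95% interval within 0.5 log2 units of no change, the lowest bound being -0.43 and the highest 0.45, and 30 of the 43 had an interval within 0.3. Genes picked for not passing have intervals near 0 in part because of that choice. Of all 48 members, 43 lay within 0.5 and 30 within 0.3, against 14268 and 6038 of all 18193 genes. The standard errors of the 48 changes ran from 0.08 to 0.11. In 17 members (35.4%) all values of one group lay above all values of the other, 8 with stretched above and 9 with stretched below. Such separation was found in 32.6% of all genes, with stretched above in 16.0% and below in 16.6%. Of the 35 members among the 1819 genes with the brightest probe sets, 1 passed, Rpl22l1, or 2.86%, while 26.8% of those 1819 genes passed. Groups were separate in 31.4% of these 35 members and in 56.2% of the 1819 genes. Of the 13 other members, 4 passed (30.8%), against 13.4% of the other genes. The split by signal was chosen after the values were seen, and whether bright signals understate changes was not tested. The brightest member, Rps28, stood at 13.25 to 13.30 in stretched and 13.25 to 13.41 in unstretched arrays, below the highest signal of each array, which was 13.72 to 13.78 in stretched and 13.57 to 13.64 in unstretched arrays.

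**Figure D1:**
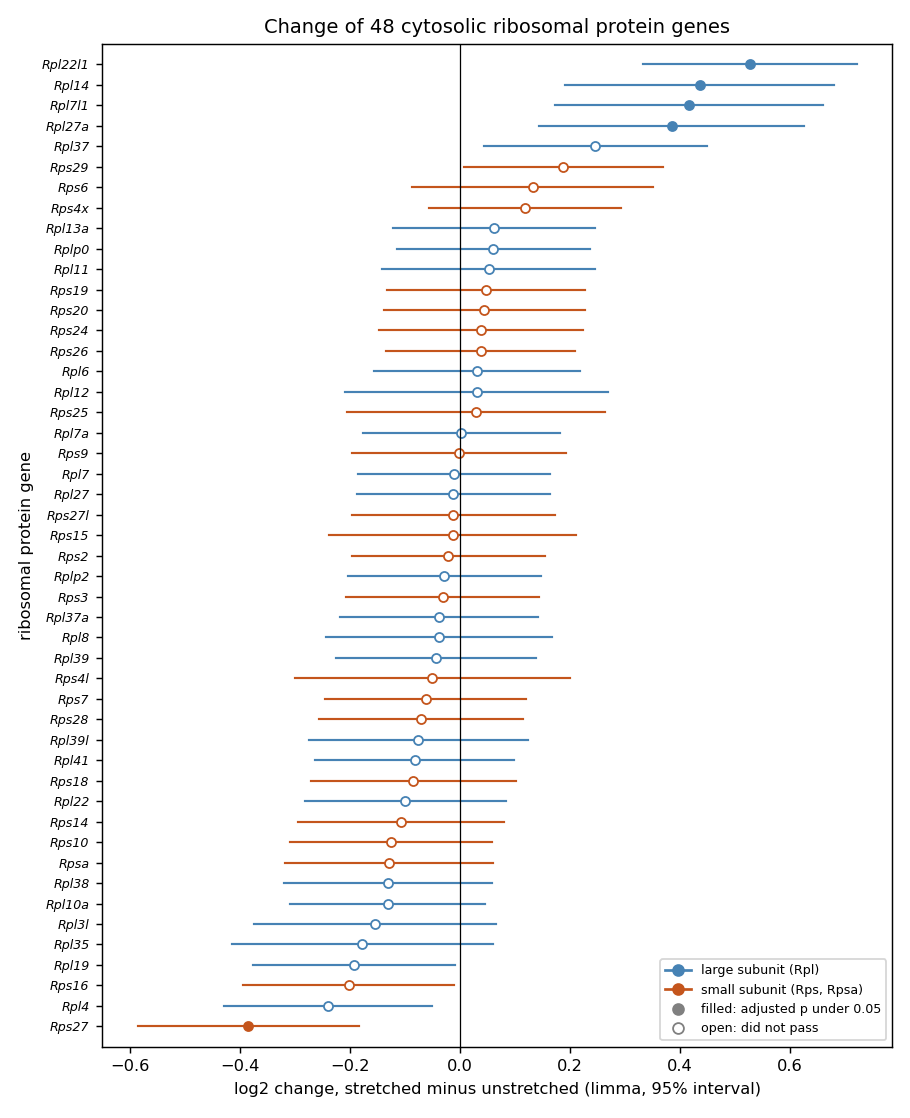
Log2 change, stretched minus unstretched, of the 48 cytosolic ribosomal protein genes (points) with 95% intervals from limma (lines, n = 3 arrays per group), in blue for the large and orange for the small subunit. Filled points passed at an adjusted p under 0.05: 4 large subunit genes lie above 0 and Rps27 lies below, while the other intervals stay within 0.5 of no change.

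Rpl22l1 showed the largest change of the family when each gene is read by its brightest probe set. It is the paralog of Rpl22, and in mice the Rpl22 protein is known to hold down Rpl22l1. Its log2 value was 10.07, 9.87 and 9.97 on stretched arrays 1 to 3, against 9.45, 9.38 and 9.50 on unstretched arrays 1 to 3. Every stretched array lay above every unstretched array, and the gap between the groups exceeded the range within either. Stretched cells were 1.44-fold higher, a log2 change of 0.53 with SE 0.09 and a 95% interval of 0.33 to 0.72 (limma, adjusted p = 0.00279). It was the sole member whose call held in all 15 alternative settings, with changes of 0.45 to 0.58. Rpl22l1 was read by 1 probe set, so no other could be compared. The parent Rpl22, an RNA-binding protein of the large subunit, had values of 12.27, 12.22 and 12.30 on stretched and 12.41, 12.40 and 12.28 on unstretched arrays. The groups overlapped by a small margin. Rpl22 did not pass, at -0.10 with a 95% interval of -0.28 to 0.08 (limma, adjusted p = 0.486), and the probe set used carries a suffix for probes shared between genes. Its 2 dimmer probe sets had changes of -0.24 (95% interval -0.46 to -0.02, adjusted p = 0.157 over all probe sets, limma, all stretched arrays below) and -0.16 (95% interval -0.45 to 0.13). The log2 ratio of Rpl22l1 to Rpl22 within each array averaged -2.29 ± 0.08 in stretched and -2.92 ± 0.13 in unstretched arrays (SD, n = 3 each). The difference of these ratios was 0.63, with all stretched arrays above (two-sided exact permutation p = 0.1, or 0.167 adjusted over 5 paralog pairs).

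Rpl7l1 rose as well. It is a paralog of Rpl7, a conserved protein of the large subunit. Its log2 value was 8.56, 8.55 and 8.54 on stretched arrays, against 8.39, 8.02 and 8.00 on unstretched arrays. The stretched values were nearly equal, whereas unstretched replicate 1 stood well above the other unstretched arrays. The change was 0.42 (SE 0.11, limma adjusted p = 0.0285), 1.33-fold. Both of its other probe sets moved the same way, by 0.35 (SE 0.09, adjusted p = 0.0374 over all probe sets, limma) and 0.59 (SE 0.11, adjusted p = 0.00970), so all 3 probe sets of the gene passed. The dimmest of them read 7.19, 7.14 and 6.83 on stretched and 6.57, 6.50 and 6.33 on unstretched arrays. The parent Rpl7 had 12.65, 12.60 and 12.62 on stretched and 12.67, 12.61 and 12.61 on unstretched arrays, with groups that overlapped throughout and a change of -0.01 (95% interval -0.19 to 0.16). The Rpl7l1 call ended without any of the 3 stretched arrays (adjusted p = 0.0885, 0.0787 and 0.0805 for replicates 1 to 3), without unstretched replicate 2 (0.0971) or 3 (0.0764), with cyclic loess (0.0536) and when the arrays were quantile normalized once more (0.0648).

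Rpl14 and Rpl27a are ordinary large subunit proteins without a paralog among the members. Rpl14 had log2 values of 7.61, 7.55 and 7.72 on stretched and 7.01, 7.14 and 7.42 on unstretched arrays. The groups did not overlap, although unstretched replicate 3 came close to the lowest stretched array. The change was 0.44 (SE 0.11, limma adjusted p = 0.0236), 1.35-fold, on the single probe set of the gene. Its call ended without stretched replicate 1 (0.0700) or 3 (0.0928) and without unstretched replicate 1 (0.0767) or 2 (0.0730). Rpl27a, whose loss of 1 copy is known to disturb development in mice, had 8.46, 8.26 and 8.47 on stretched against 8.01, 8.20 and 7.83 on unstretched arrays. The groups were separate, with stretched replicate 2 only just above unstretched replicate 2. The change was 0.38 (SE 0.11, limma adjusted p = 0.0383), 1.30-fold. This call was the least stable of the 5: it ended in 8 of 15 alternatives, with adjusted p from 0.0544 to 0.132. Among these were the runs without stretched replicate 1 (0.132) or 3 (0.131), without unstretched replicate 1 (0.0855) or 3 (0.101), and with every probe set tested (0.0544). The other probe set of Rpl27a, a dim one, had a change of 0.07.

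Rps27 was the member that fell. It is a zinc-binding small subunit protein, and its paralog Rps27l is known as a target of p53. Rps27 had log2 values of 7.53, 7.60 and 7.48 on stretched arrays, against 7.93, 8.04 and 7.80 on unstretched arrays. All stretched values lay below all unstretched ones. Rps27 was read by 1 probe set, with a mean log2 value of 7.73, so no other probe set could be compared. Stretched cells were 1.31-fold lower, a log2 change of -0.39 with SE 0.09 and a 95% interval of -0.59 to -0.18 (limma, adjusted p = 0.0165). The call ended without stretched replicate 1 (0.0604) or 3 (0.0677) and without unstretched replicate 2 (0.0589). Rps27l had 11.57, 11.64 and 11.72 on stretched and 11.68, 11.69 and 11.61 on unstretched arrays, which overlapped. Its change was -0.01 (95% interval -0.20 to 0.17), and its other probe sets gave -0.08 and -0.07. The log2 ratio of Rps27l to Rps27 was 4.11 ± 0.12 in stretched and 3.73 ± 0.08 in unstretched arrays (SD, n = 3 each), a difference of 0.37 with all stretched arrays above (exact permutation p = 0.1, adjusted 0.167).

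**Figure D2:**
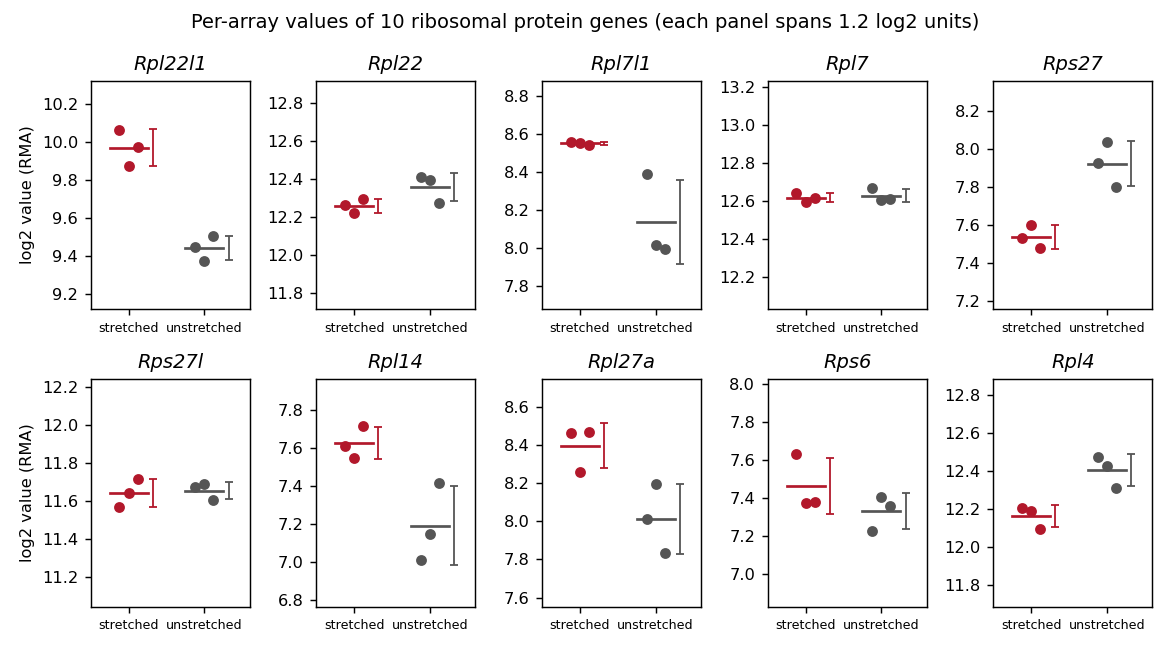
RMA log2 value (vertical axis, each panel spanning 1.2 units) on each of 3 stretched and 3 unstretched arrays, with the group mean (line) and SD (bar beside it), for the 5 genes that passed, the parents or paralogs Rpl22, Rpl7 and Rps27l, and Rps6 and Rpl4. In Rpl22l1, Rpl7l1, Rpl14 and Rpl27a every stretched point lies above every unstretched one and in Rps27 and Rpl4 below, while Rpl22, Rpl7, Rps27l and Rps6 overlap.

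The other paralogs gave no call. Rpl3l, the striated muscle relative of Rpl3 (not a member), had a change of -0.16 (95% interval -0.37 to 0.06). Rpl39l, known from the testis, had -0.08 (95% interval -0.28 to 0.12), and Rps4l, a relative of the X-linked Rps4x, had -0.05 (95% interval -0.30 to 0.20). These 3 and Rps16 were the members whose signal lay below that of the median gene, between 3.30 and 4.35 on average, where values can be background. Of the parents, Rpl39, which lines the tunnel through which the new protein leaves, had -0.04 (95% interval -0.23 to 0.14), and Rps4x had 0.12 (95% interval -0.06 to 0.29). Rps4x stood at 12.90, 12.88 and 12.87 on stretched and at 12.77, 12.72 and 12.80 on unstretched arrays, so that its groups were separate without a call. The ratios of Rpl39l to Rpl39 and of Rps4l to Rps4x overlapped between the groups (exact permutation p = 0.9 and 0.4).

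Among large subunit genes, 4 of 26 rose and 0 fell in limma, with 5 higher and 2 lower at an unadjusted p under 0.05. In the small subunit 0 of 22 rose and 1 fell, with 1 higher and 2 lower at an unadjusted p under 0.05. The calls are 15.4% of the large and 4.55% of the small subunit genes, against 14.7% of all genes. At an unadjusted p under 0.05 in limma, 2611 of all 18193 genes were higher and 2446 lower. The medians were both -0.02, and the difference between the subunits was not tested. The stalk that recruits translation factors is formed by Rplp0 with Rplp1 and Rplp2. Rplp0 had 12.94, 12.95 and 12.92 on stretched and 12.93, 12.85 and 12.85 on unstretched arrays, a change of 0.06 (95% interval -0.12 to 0.24). Rplp2 had a change of -0.03 (95% interval -0.20 to 0.15), and Rpl12, at the base of the stalk, of 0.03 (95% interval -0.21 to 0.27). No separation of the groups was seen in any of these 3 stalk genes.

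Rpl4, whose long loop lines the exit tunnel, showed the most negative change among genes that did not pass. Its log2 values were 12.20, 12.19 and 12.09 on stretched and 12.47, 12.42 and 12.31 on unstretched arrays. The stretched arrays all lay below the unstretched ones, with a change of -0.24 (SE 0.09, 95% interval -0.43 to -0.05, limma adjusted p = 0.0895). It passed when the arrays were quantile normalized again (-0.33, adjusted p = 0.0254), with cyclic loess (-0.31, 0.0299) and with a trended, robust prior (0.00698). Rpl19 and Rpl35, which sit near the tunnel exit, had -0.19 (95% interval -0.38 to -0.01, limma adjusted p = 0.160) and -0.18 (95% interval -0.41 to 0.06). Rpl19 passed with quantile normalization again (adjusted p = 0.0364) and with the trended prior (0.0244). All 6 probe sets of Rpl35 had changes below 0, from -0.33 to -0.15, and none passed (0 of 6 in limma over all probe sets). Rpl8, at the catalytic centre, had -0.04 (95% interval -0.24 to 0.17), and Rpl11, which with the 5S RNA can bind Mdm2 and stabilise p53, had 0.05 (95% interval -0.14 to 0.24).

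In the small subunit, Rps6 is the classic substrate of the S6 kinases downstream of mTORC1. It had 7.63, 7.38 and 7.38 on stretched and 7.23, 7.41 and 7.36 on unstretched arrays, where stretched replicate 1 alone stood above the unstretched range. The change was 0.13 (95% interval -0.09 to 0.35, limma adjusted p = 0.438). Rpsa, also described as a laminin receptor precursor, had 12.28, 12.30 and 12.17 on stretched and 12.46, 12.35 and 12.33 on unstretched arrays. Its groups were separate, with a change of -0.13 (95% interval -0.32 to 0.06, limma adjusted p = 0.368). Rps2 and Rps3, at the channel where the messenger enters, had changes of -0.02 and -0.03, and Rps26 and Rps28, near the exit of the messenger, had 0.04 and -0.07. Rps29 had 13.24, 13.21 and 13.26 on stretched and 12.97, 13.08 and 13.10 on unstretched arrays, which were separate (change 0.19, 95% interval 0.01 to 0.37, limma adjusted p = 0.165). It passed with the trended, robust prior (adjusted p = 0.0111). Its other 2 probe sets, of similar signal, had changes of -0.01 (95% interval -0.20 to 0.18) and 0.12 (95% interval -0.07 to 0.31), with groups that overlapped. The dim Rps16 had -0.20 (95% interval -0.39 to -0.01) and Rpl37 of the large subunit 0.25 (95% interval 0.04 to 0.45, adjusted p = 0.105).

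The 5 members with the highest signals were Rps28, Rps29, Rpl37a, Rplp0 and Rpl7a. Rpl37a and Rpl7a, both of the large subunit, had changes of -0.04 (95% interval -0.22 to 0.14) and 0.00 (95% interval -0.18 to 0.18). Rpl38, known in mice for its role in the translation of Hox messengers, had -0.13 (95% interval -0.32 to 0.06), with all stretched arrays below all unstretched ones.

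Several genes were read by more than one probe set, and these did not always move together. The 24 such genes had 80 probe sets, 56 of them other than the one that stands for the gene. Of these 56, 9 passed with higher and 2 with lower values in stretched cells, adjusted over all 45037 probe sets. Over all 104 probe sets of the family, 15 passed (14.4%), against 11.0% of all probe sets, 12 of them higher (6.47% of all probe sets) and 3 lower (4.51%). No gene had calls in both directions (0 of 24).

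Rps20, a protein of the small subunit head, differed most between its probe sets. Its 2 bright probe sets had changes of 0.04 and 0.10 and did not pass, whereas the 2 dim ones had 0.62 and 1.02 and passed (limma adjusted p = 0.0149 and 2.49e-04 over all probe sets). The dimmest read 5.71, 5.68 and 5.49 on stretched and 4.62, 4.69 and 4.49 on unstretched arrays, so that the groups were far apart. The 4 probe sets of Rpl13a, known in human cells for a second role in silencing inflammatory messengers, were ordered likewise, with changes of 0.06, 0.10, 0.39 and 0.70 from the brightest to the dimmest. The last read 10.36, 10.14 and 10.32 on stretched and 9.48, 9.46 and 9.78 on unstretched arrays, and it and the third passed (limma adjusted p = 0.00334 and 0.0305 over all probe sets). With the mean over a gene's probe sets both genes passed, Rps20 with a change of 0.45 (limma adjusted p = 0.00590) and Rpl13a with 0.31 (0.0260).

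Calls among secondary probe sets were also found in 4 other genes. Rpl27 had -0.01 on its brightest probe set, while its other 2 gave 0.35 and 0.34 and passed, and a second probe set of Rps9 gave 0.33 and passed against 0.00 on its brightest. The dimmest probe sets of Rps18 and Rps24 gave -0.38 and -0.44 and passed in the downward direction, while the brightest gave -0.09 and 0.04. That of Rps18 had a mean log2 value of 3.94, where values can be background, and that of Rps24 had 5.31. The remaining Rps18 probe sets gave -0.05, 0.16, 0.22 and -0.11 and did not pass. At 0.16 and 0.22 all stretched arrays lay above all unstretched ones. These 6 genes were named after their values were seen. Which probe set reads the parent gene best, and how much signal comes from pseudogene copies, was not tested. Of the 48 probe sets that stand for the genes, 14 carry a suffix for probes that match other sequences, and 0 of these 14 passed (limma, 2 at an unadjusted p under 0.05). Over all genes 14.7% passed. All of the 14 except that of Rpl37 are among the 1819 brightest, where 1 of 35 members passed. Suffix and signal thus cannot be told apart here.

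**Figure D3:**
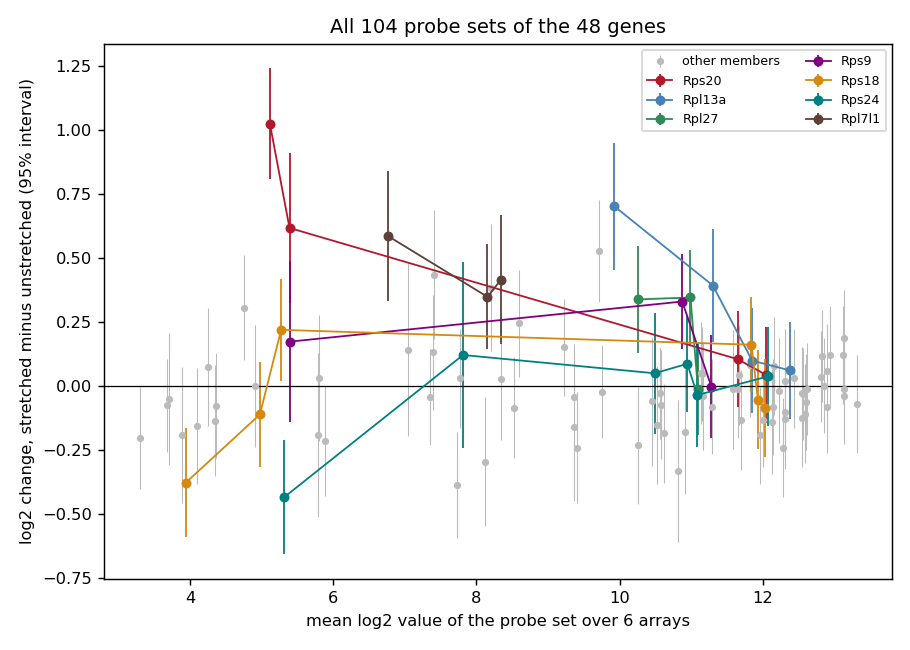
Log2 change, stretched minus unstretched (vertical axis, with 95% intervals), against the mean log2 value over 6 arrays (horizontal axis) for all 104 probe sets of the 48 genes, with lines joining the probe sets of 7 genes. For Rps20 and Rpl13a the dim probe sets lie above the bright ones, at up to 1.02 and 0.70, and the 3 probe sets of Rpl7l1 all lie above 0.

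Fau and Rps3a1, which encode small subunit proteins but fall outside the naming form, did not pass either, with changes of -0.15 (95% interval -0.34 to 0.05) and -0.03 (95% interval -0.21 to 0.14). The mitochondrial ribosomal proteins, which build the separate ribosome of that organelle, had a median of -0.04, with 2 of 73 higher and 8 lower. These calls are 13.7% of the 73 genes, against 14.7% of all genes, where 7.98% were higher and 6.76% lower. The difference between the 2 families was not tested.

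Genes that work with the ribosome gave calls in both directions, where 7.98% of all genes were higher and 6.76% lower. For the counts at an unadjusted p under 0.05 below, 2611 of all 18193 genes were higher and 2446 lower. Of 9 translation elongation factors 2 rose and 1 fell (median 0.15). Eef1a2, a tissue-restricted form of the factor that brings transfer RNA to the ribosome, rose by 0.58 (SE 0.10), Eef1b2, its exchange factor, by 0.34 (SE 0.09), while Eif5a2 was lower (-0.38, SE 0.10). The abundant form Eef1a1 had 0.15 (95% interval -0.03 to 0.32). Of 32 initiation factors 2 rose and 1 fell (median 0.03), namely Eif4g2 (0.41, SE 0.08), Eif2b4 (0.38, SE 0.10) and Eif1a (-0.59, SE 0.14). The Eif1a call rests on a probe set shared between genes, and another of its probe sets had a change of 0.18. With the probe sets of a gene averaged, the calls of Eif4g2 (0.17) and Eif1a (-0.21) ended. Of 14 other messengers known to carry the TOP motif, 1 rose, the intermediate filament gene Vim (0.35, SE 0.09), and 0 fell in limma, with 2 higher and 1 lower at an unadjusted p under 0.05 (median 0.01).

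Genes of ribosome assembly, ribosomal RNA modification and RNA polymerase I gave calls in both directions. Of 115 such genes 8 rose and 5 fell, with a median of -0.02. These calls are 11.3% of the 115 genes, against 14.7% of all genes. Those of the small subunit gave 6 higher and 1 lower of 45, among them Wdr46 (0.58, SE 0.11), Wdr3 (0.43, SE 0.09), Nol10 (0.42, SE 0.09) and Bysl (0.41, SE 0.10). Those of the large subunit gave 1 higher and 3 lower of 45, with Gnl3l at 0.52 (SE 0.09), Wdr12 at -0.51 (SE 0.14), Sdad1 at -0.43 (SE 0.12) and Pes1 at -0.33 (SE 0.09). Pes1 and Wdr12 are partners in the same complex of large subunit assembly, but a change of that complex as a whole was not tested. The Pes1 call ended in 5 and the Wdr12 call in 6 of 15 alternatives. Bop1, in the same large subunit list, did not pass, at -0.04 (SE 0.11) with groups that overlapped. Of 25 factors of RNA modification and RNA polymerase I, the pseudouridine synthase Dkc1 was higher (0.57, SE 0.08) and Taf1a lower (-0.39, SE 0.09). The Wdr46 call rests on a probe set shared between genes, and it was at -0.02 on another. Importins and chaperones that carry ribosomal proteins gave 3 higher and 0 lower of 13 in limma (5 higher and 2 lower at an unadjusted p under 0.05): Kpnb1 rose by 0.56 (SE 0.10), Tnpo1 by 0.54 (SE 0.09) and Ipo7 by 0.38 (SE 0.10). With probe sets averaged, 7 of the calls named in this paragraph ended: Tnpo1 was then at 0.18, Ipo7 at 0.13, Wdr46 at 0.28, Bysl at 0.19, Gnl3l at 0.18, Wdr12 at -0.16 and Sdad1 at -0.23. Called genes of these lists that are not named were not followed.

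Genes of the mTORC1 and S6 kinase pathway gave 0 higher and 5 lower of 26 in limma, with 3 higher and 6 lower at an unadjusted p under 0.05 (median 0.01). The calls are 19.2% of this list, against 14.7% of all genes. In the lists that follow they are 16.7% (Myc), 25% (p53) and 21.1% (rescue or reuse of ribosomes). The GTPases Rragd and Rragc, which tether mTORC1 to the lysosome, were lower by log2 changes of -1.71 (SE 0.15) and -0.52 (SE 0.09), and Rragd was at -0.79 when its probe sets were averaged. The other 3 that fell were the mTORC1 inhibitor Deptor (-0.44, SE 0.09), the stress-induced Sesn1 (-0.64, SE 0.10) and the translation repressor Eif4ebp2 (-0.40, SE 0.09). The Sesn1 call ended without probe sets shared between genes. Of 12 genes of Myc, a known activator of ribosomal genes, and its partners, 1 rose, Mlx (0.58, SE 0.14), and 1 fell, Mnt (-0.52, SE 0.13), while Myc itself had -0.24 (95% interval -0.61 to 0.13). Of 8 genes of the p53 response to ribosomal stress, 1 rose, Pmaip1 (0.49, SE 0.12), and 1 fell, Zmat3 (-0.54, SE 0.08). In this list Cdkn1a (0.16, SE 0.31) and Mdm2 (-0.02, SE 0.20) did not pass and were highest on replicate 3 of both groups. Cdkn1a stood there at 11.6 (stretched) and 11.2 (unstretched), against 10.3 to 10.5 on the other arrays. Mdm2 stood at 10.0 and 10.1, against 9.4 to 9.5. What sets replicate 3 apart was not tested. Of 19 genes that rescue or reuse ribosomes, 3 rose, Ascc3 (0.64, SE 0.11), Eif2ak4 (0.57, SE 0.12) and Nemf (0.42, SE 0.10), and 1 fell, Habp4 (-0.60, SE 0.14). Of the 33 calls named in these lists, 8 held in every alternative, those of Eef1a2, Wdr3, Dkc1, Kpnb1, Rragd, Rragc, Deptor and Zmat3. Each left-out array ended some of the others: 15, 10 and 15 without stretched replicates 1, 2 and 3, and 12, 12 and 1 without unstretched replicates 1, 2 and 3. Averaging the probe sets of a gene ended 15, among them Eif2ak4 (0.05, adjusted p = 0.799 in limma), Ascc3 (0.28), Habp4 (-0.22), Mlx (0.18), Sesn1 (-0.22) and Eif4ebp2 (-0.10). Deptor and Mnt still passed, at -0.25 and -0.32.

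**Figure D4:**
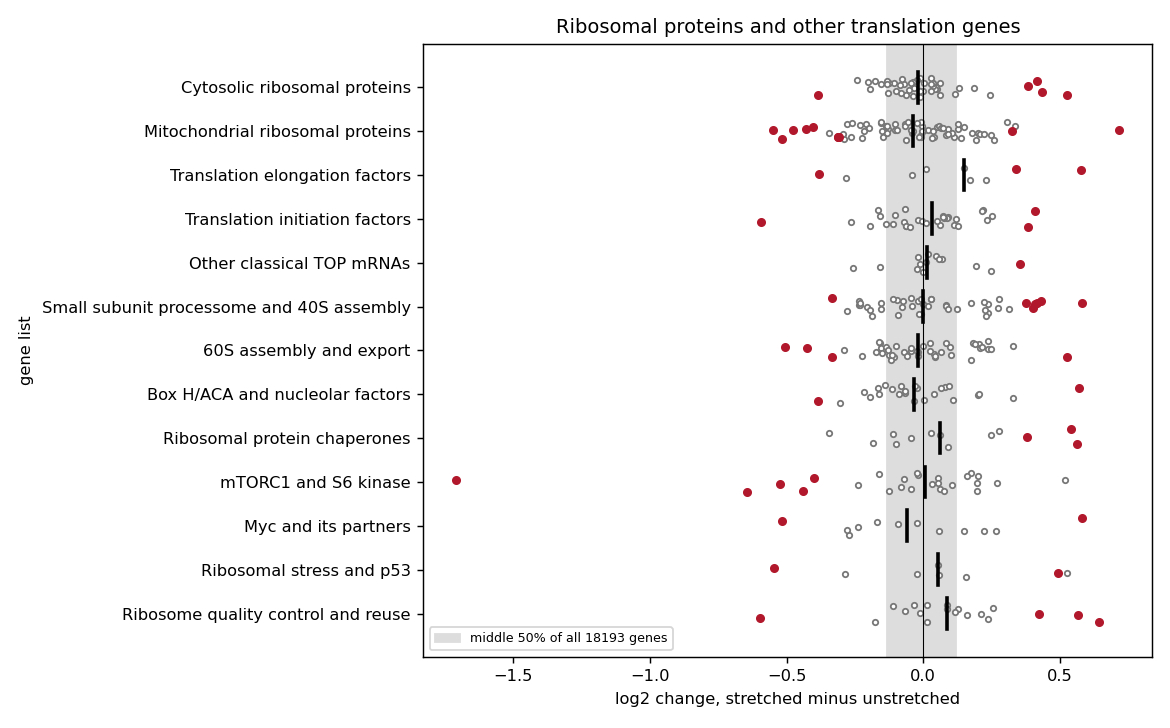
Log2 change, stretched minus unstretched (horizontal axis), of each gene in 13 lists (Fau and Rps3a1 are not plotted), with red points for genes that passed at an adjusted p under 0.05, open points for the others, a black bar at the median and the range between the quartiles of all 18193 genes in grey. The 13 plotted medians lie between -0.06 and 0.15, and that of the cytosolic ribosomal proteins is at -0.02.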

How the data were processed

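Messenger RNA of 3 stretched and 3 unstretched samples was measured on Affymetrix arrays, and each sample's title gave its group. As deposited, each value is a log2 signal from RMA, per the submitters' processing notes, without a stated version. Of 45101 probe sets, 64 controls were left out; 34945 had 1 gene symbol in the platform annotation, 932 had several and 9160 were not listed. Symbols were checked by gene ID against the RefSeq table of GRCm38 (34741 matched, 0 changed). The probe set with the highest mean over 6 arrays stood for each of 18193 genes. Changes were fitted with limma 3.58.1 (lmFit, eBayes) in R 4.3.3 without covariates or a filter on dim genes, with Benjamini-Hochberg adjustment over all genes. The number of arrays limits precision. The fitting steps were also tested on simulated data. A single value was tested otherwise: the test was an exact permutation of the arrays, two-sided.

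The members and the gene lists were chosen with earlier results of these data known. The genes named by rule were all called members, the 5 members with the highest and the 5 with the lowest signal, paralogs with their parents, Rps6, Rpl11, Rpsa, Rplp0 and Rplp2 (Rpl5, Rplp1 and Rps27a, also in the rule, have no probe set with a single symbol here), and, in each of 12 other lists, the called genes (the 4 with the largest statistic where more than 5 passed). Other members were named for their known roles after their values were seen. Alternatives were the replicate number as a block, each array left out, leaving out dim genes, 3 other scalings, another prior and 3 other ways to pick the probe set.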

Additional observations from a re-analysis of the deposited data

Results flagged for a closer look

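Among probe sets that list several genes, and so stand for no gene above, though they count among all probe sets tested, 110 carry at least 1 symbol of the cytosolic ribosomal protein form. They are given because they lie outside the values per gene: 9 of the 110 (8.18%) passed in limma over all probe sets, a smaller share than the 11.0% of all probe sets, 8 of them higher and 1 lower in stretched cells. Their changes ran from -0.32 to 1.36, with a median of -0.00496. Which of the listed genes or pseudogenes gives the signal was not tested, and no gene is named from them.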

How the results depend on the processing

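The number of ribosomal protein genes called higher, 4 as deposited, was 2 with cyclic loess and 2 with quantile normalization again, and ran from 1 to 3 when 1 array was left out; it was 5 with a trended, robust prior, 5 with probe sets averaged and 5 without _x_at and _s_at probe sets. The number called lower, 1 as deposited, was 2 with cyclic loess, 3 with quantile normalization again and 3 with a trended, robust prior, and ran from 0 to 1 with 1 array left out. The median change of the family was -0.083 with cyclic loess and -0.083 with quantile normalization again, and -0.025 to -0.011 with 1 array left out. The cause was not tested. All genes called numbered 1661 without stretched replicate 1 and 1750 without stretched replicate 3, against 2681. Calls higher made up fewer of them with quantile normalization again (1149 higher, 1544 lower) and more with arrays centred on their medians (1666 higher, 1028 lower), against 1452 higher and 1229 lower. With the replicate number as a block, 4 genes of the family were higher and 1 lower, and 3102 of all genes were called; it ended no call of the family. The deviations of same-numbered arrays correlated at 0.02, 0.15 and 0.28, and those of differently numbered arrays at -0.24 to 0.11. The same-numbered values were not all above 0.1, so the numbers were not taken as pairs in the main fit. The series does not say whether the numbers mark its batches. Without probe sets that carry an _x_at or _s_at suffix, 43 genes were left, Eif1a changed sign to 0.180 and Wdr46 to -0.018. The 5 called members kept their direction in all 15 alternatives. With 3 arrays a group and no detection calls, small changes of dim probe sets such as Rps16 or Rpl3l cannot be told from background.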
